A study of Homo sapiens with 12 samples.

Results

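The miR200ba429 construct, which carries the human miR-200b, miR-200a and miR-429 genes, was given alone to 3 established cell lines, and each miR200ba429 array was set against the control array of the same line. These are 6 of the 12 arrays of the series, chosen by their titles: 3 with miR200ba429 and without miR200c141, and 3 controls, in HUTU-80, MDST8 and NCI-H716. All 3 lines are labelled as colorectal cancer lines in which the miR-200 loci are methylated, which holds for the control arrays as well. Cells were infected with lentivirus, sorted for GFP 48 hours later, and RNA was taken on day 7 after infection. What the control cells received is not stated in the labels, nor is the promoter that drives the construct. The other 6 arrays carry miR200c141 alone or both clusters. Each line gave a single miR200ba429 array and a single control array, and the labels do not say that these came from separate cultures. No spread within a line is known. The spread behind each test combines that of the change between lines with a spread borrowed from all genes.

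The miR-200 family comprises short RNAs that bind through their seed, bases 2 to 8, to sites in the 3′ ends of messenger RNAs and lower the amount or translation of those messages. Their best known targets are ZEB1 and ZEB2, repressors that bind E-box motifs in the promoters of epithelial genes such as CDH1 and so keep carcinoma cells in a mesenchymal state. ZEB1 in turn represses the miR-200 genes, and methylation of these loci is a known way in which colorectal tumour cells lose them.

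The mature sequences are shown because the seed decides which sites a miRNA can pair with. All 5 family members were found in RefSeq (GRCh38.p14), and capitals mark the seed. The 3 miRNAs of the construct lie within 1917 bases of the plus strand of chromosome 1, miR-200b at chr1:1167160-1167181, miR-200a at chr1:1167916-1167937 and miR-429 at chr1:1169055-1169076.
hsa-miR-200b-3p: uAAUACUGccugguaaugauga
hsa-miR-429: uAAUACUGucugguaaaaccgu
hsa-miR-200a-3p: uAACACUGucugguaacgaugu
The other cluster, on chromosome 12, encodes the remaining members.
hsa-miR-200c-3p: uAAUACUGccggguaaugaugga
hsa-miR-141-3p: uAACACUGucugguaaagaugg
miR-200b, miR-429 and miR-200c share the seed AAUACUG. miR-200a and miR-141 share the seed AACACUG, which differs from it by U4C, with positions counted from the 5′ end of miR-200b. Each cluster thus holds both seeds. No level of a mature miRNA was analysed here, so how much of each miRNA the construct made in each line is not known from these arrays.

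Levels are log2 intensities, and a gene was called above background where it exceeded 5.43, the highest value among 23 nonspecific control probe sets. Over all genes the lowest correlation within a line was 0.991 and the highest between lines 0.885. The lines differ in their own markers. Of 11 markers of colorectal epithelium, 3 were above background with miR200ba429 and 1 in the control of HUTU-80, 1 and 1 in MDST8, and 9 and 8 in NCI-H716. CDX1, an intestinal transcription factor, was below background on all 6 arrays, and CDX2, its relative, lay between 5.52 and 5.57 in NCI-H716 and below background in the other lines. HUTU-80, a line known to come from the duodenum, had 13.09 with miR200ba429 and 13.20 in the control for GCG, the glucagon precursor of enteroendocrine cells, and NCI-H716 had 13.21 and 13.18. GCG was the only 1 of 5 neuroendocrine markers above background in HUTU-80, while 4 were in NCI-H716 and 0 in MDST8, on both arrays of each line. Of 5 fibroblast markers, 3 were above background with miR200ba429 and 3 in the control of HUTU-80, 1 and 2 in MDST8, and 1 and 1 in NCI-H716. Of the immune and endothelial markers, LYZ in NCI-H716 was above background, with 9.45 against 7.97 in the control, and the others were not. The 3′ minus 5′ difference of the ACTB control probe sets, a sign of RNA quality, was 2.10 against 2.22 in the HUTU-80 control, 1.51 against 1.54 in the MDST8 control, and 2.37 against 2.33 in the NCI-H716 control.

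In the fit of HUTU-80 and NCI-H716 together, rises of epithelial membrane and junction genes and a fall of ZEB1 were prominent, while MDST8 showed little of this. Across these 2 lines 103 of 19774 genes passed the test (0.521%), of which 66 rose (0.334%) and 37 fell (0.187%), by limma with the line as a fixed term and Benjamini-Hochberg adjustment at 0.05. Over all 3 lines no gene passed (0%), the smallest adjusted p being 0.222 for DDIT4, although 1351 genes had an unadjusted p under 0.05 where 989 would be expected. Of the 66 genes that rose in HUTU-80 and NCI-H716, 35 were also higher in MDST8, 7 of them by more than 0.5, while 9 were lower there by more than 0.5. Their median change was 0.03 in MDST8 against 1.12 over the other lines. Of the 37 that fell, 21 were lower in MDST8 and the median was −0.04 there against −0.68. In MDST8, 49.1% of all genes were higher and 50.9% lower. The 66 and 37 genes were chosen by their changes in HUTU-80 and NCI-H716, which enlarges their medians there. Of the 66, 24 were below background on both MDST8 arrays.

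These calls rest on 1 residual degree of freedom, against 18 prior degrees of freedom borrowed from all genes. Each SE of this fit thus comes mainly from other genes, and a small SE does not mean that the 2 lines changed alike. EPCAM, for example, changed by 4.86 in HUTU-80 and 2.32 in NCI-H716, with an SE of 0.33. Some calls rest mainly on 1 line, such as KRT8 with 2.51 in HUTU-80 and 0.32 in NCI-H716. SPINT2 had 0.37 and 3.29 in the same order. The calls changed with the setting: 0 genes were called without the trend of variance on level, 0 when all probe sets of a gene were averaged, and 6 when the miR200c141 and combined arrays entered the same model. Those 6 were VAMP8, SEL1L3, SLC27A2, ZNF165, MARVELD3 and ZEB1, all among the 103.

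Across genes, the changes of HUTU-80 and NCI-H716 resembled each other more than either resembled those of MDST8. Over 8455 genes above background in both HUTU-80 and NCI-H716, Pearson's r was 0.30, Spearman's rho was 0.28, and 60.5% had the same sign. HUTU-80 and MDST8 gave 0.05 and 0.05 with 52.1% over 8664 genes, and MDST8 and NCI-H716 gave 0.09 and 0.09 with 53.3% over 8540 genes. Each line has its own control, genes are not independent replicates, and these values are a description. Among the 202 genes that moved by more than 0.5 in both HUTU-80 and NCI-H716, 155 (76.7%) moved the same way, 81 up and 74 down, and beyond 1 log2 unit there were 13 up and 2 down. MDST8 had large differences of its own: 53 of its 9826 genes above background (0.539%) were higher by more than 1 and 113 (1.15%) lower, against 185 (1.94%) and 78 (0.819%) of 9527 in HUTU-80, and 132 (1.37%) and 80 (0.83%) of 9640 in NCI-H716.

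**Figure D1:**
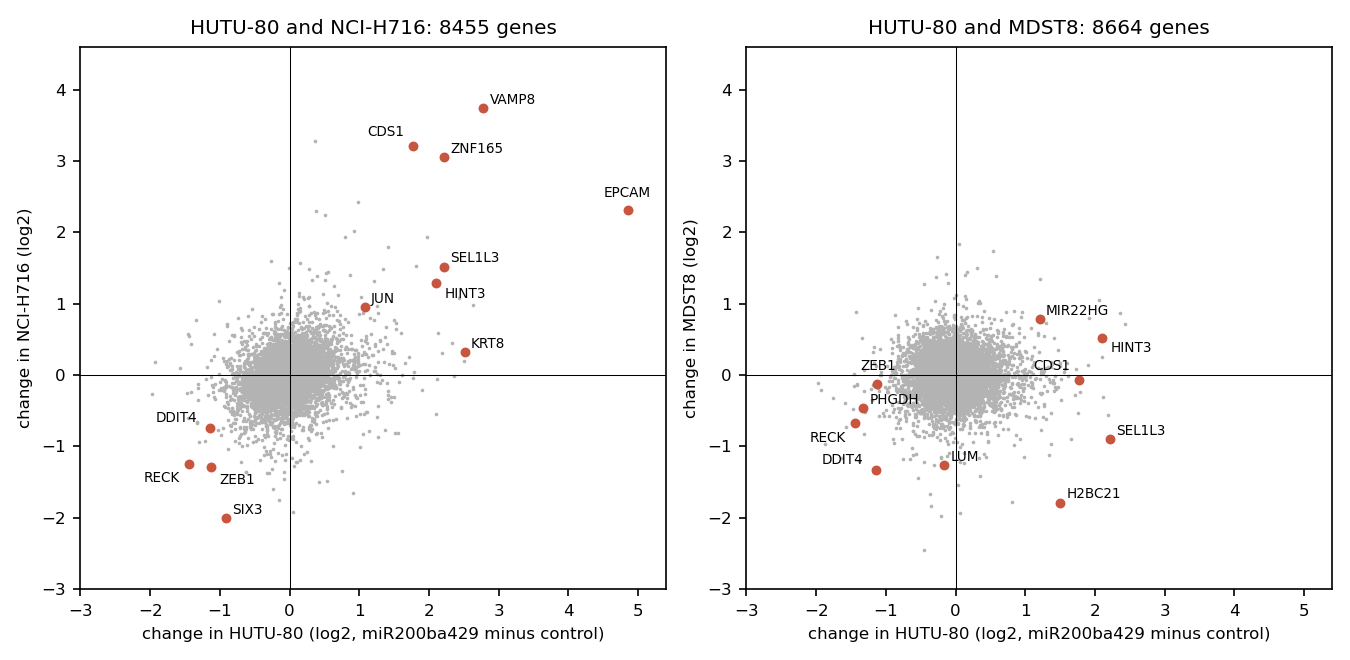
Change with miR200ba429 (log2, miR200ba429 minus control) of each gene above background, HUTU-80 on the horizontal axes against NCI-H716 (left, 8455 genes) and MDST8 (right, 8664 genes), with named genes in red. EPCAM, VAMP8, CDS1 and ZNF165 lie far out in the upper right of the left plot, and in the right plot CDS1 and ZEB1 lie close to the horizontal line at 0.

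Genes of the epithelial surface and its junctions were prominent among the rises. Of the 43 listed genes of junctions and polarity 38 were measured, and 7 of them rose in HUTU-80 and NCI-H716, against 0.334% of all genes: EPCAM, MARVELD3, CDS1, CDH1, SPINT2, PERP and PATJ. This list is broad too, as CDS1 is a lipid enzyme and SPINT2 a protease inhibitor, and it was chosen with earlier results of these data known. The fitted change over 3 lines was positive in 35 of the 38, against 48.8% of all genes, and the median was 0.33. Medians by line were 0.19 for HUTU-80, −0.04 for MDST8 and 0.63 for NCI-H716, and 29, 18 and 35 of the 38 were higher, against 51.1%, 49.1% and 47.4% of all genes. In bulk RNA, fewer or more cells of a type and less or more RNA per cell cannot be told apart.

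EPCAM, an adhesion molecule of nearly all simple epithelia, had 9.28 with miR200ba429 and 4.42 in the control of HUTU-80, 3.39 and 3.52 in MDST8, and 11.61 and 9.29 in NCI-H716. The HUTU-80 control and both MDST8 arrays lay below background, so that the HUTU-80 change is at least 14.4-fold when the control is set to background. In NCI-H716, where both arrays were measured, it was 5.00-fold. EPCAM rose by 3.59 ± 0.33 over the 2 lines (SE, n = 2 against 2, limma adjusted p = 1.1e-05), and the call was lost with all 4 groups in the model (adjusted p = 0.122) and with robust moderation (adjusted p = 0.713).

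CDH1, which encodes E-cadherin of the adherens junction, had 5.30 against 3.20 in the HUTU-80 control, 3.77 against 3.14 in the MDST8 control, and 6.64 against 4.01 in the NCI-H716 control. Only the NCI-H716 array with the construct was above background, which makes the change there at least 2.31-fold. CDH1 rose by 2.37 ± 0.31 in the fit of HUTU-80 and NCI-H716 (adjusted p = 0.00074). MARVELD3, a tight junction protein, had 6.21 against 3.05 in the HUTU-80 control, 2.64 against 2.93 in the MDST8 control and 5.28 against 3.18 in the NCI-H716 control. Both NCI-H716 arrays lay below background, and the HUTU-80 change is at least 1.72-fold. The fitted rise of MARVELD3 of 2.63 became 0.76 (adjusted p = 0.396) with the probe set that is brightest on these 6 arrays. In all these genes the construct array of MDST8 stayed below background.

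CDS1, which makes CDP-diacylglycerol for phosphatidylinositol synthesis and is a known target of ZEB1, behaved differently in MDST8, where it was measured in the control. Its levels were 6.77 against 5.00 in the HUTU-80 control, 6.87 against 6.94 in the MDST8 control, and 6.32 against 3.11 in the NCI-H716 control. CDS1 rose by 2.49 ± 0.34 (adjusted p = 0.0011). PATJ, a scaffold of the Crumbs polarity complex, rose by 1.36 (adjusted p = 0.036), and PERP, a desmosome protein, by 0.98 (adjusted p = 0.034). SPINT2, an inhibitor of membrane serine proteases, had 8.83 against 5.54 in the NCI-H716 control and 9.73 against 9.36 in the HUTU-80 control. The claudins did not pass: CLDN4 was 8.21 against 7.44, and CLDN7 8.58 against 7.79, in NCI-H716, and CLDN1 was 10.62 against 10.47 in HUTU-80.

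**Figure D2:**
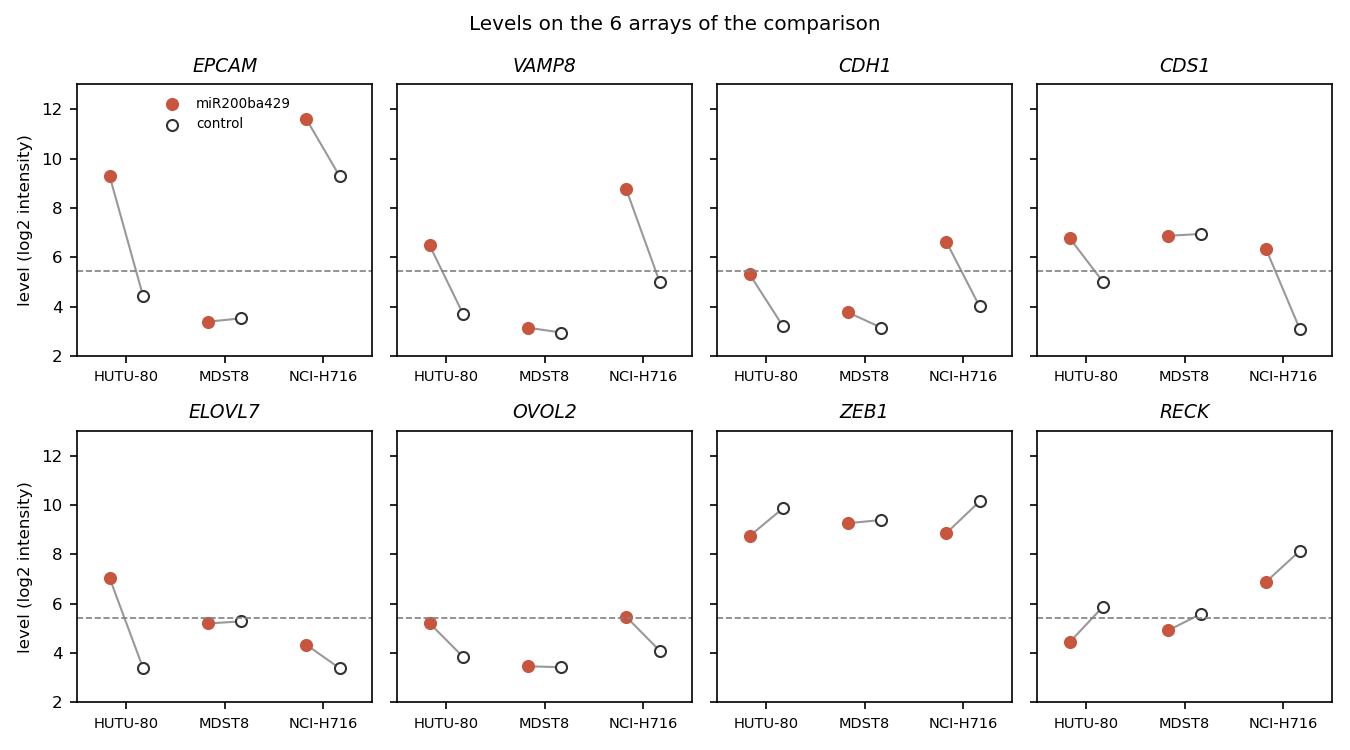
Level (log2 intensity) of 8 genes on the 6 arrays, the miR200ba429 array (filled) left of the control (open) of the same line, with the background level of 5.43 as a dashed line. The filled points of EPCAM, VAMP8 and CDH1 lie above the open ones by 2 log2 units or more in HUTU-80 and NCI-H716, while the MDST8 pairs lie below background and closer together.

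Genes of apical and vesicle traffic were the other group with several rises. Of 23 genes, all measured, 6 rose in HUTU-80 and NCI-H716, VAMP8, TMC4, ARL14, ELOVL7, MYO5B and STX3, and the fitted change over 3 lines was positive in 18. The list is broad and also holds ELOVL7, a lipid enzyme, and the membrane proteins TMC4 and SCNN1A, so not all 6 are traffic genes. Of all genes 0.334% rose and 48.8% had a positive fitted change, but the list was chosen with earlier results of these data known. Medians by line were 0.44 for HUTU-80, 0.06 for MDST8 and 0.60 for NCI-H716. VAMP8, a SNARE protein of late endosomes and secretory granules, had 6.48 against 3.70 in the HUTU-80 control, 3.14 against 2.95 in the MDST8 control, and 8.76 against 5.01 in the NCI-H716 control. Its change was at least 2.06-fold in HUTU-80 and at least 10.1-fold in NCI-H716, and it rose by 3.26 ± 0.30 over these lines (adjusted p = 1.1e-05).

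ELOVL7, a fatty acid elongase, had 7.03 against 3.39 in the HUTU-80 control, at least 3.03-fold, and stayed below background in NCI-H716 with 4.34 against 3.39. MYO5B, the motor that carries recycling vesicles to the apical membrane, had 10.35 against 9.61 in the NCI-H716 control, 7.56 against 7.07 in the MDST8 control, and lay below background in HUTU-80. STX3, the apical syntaxin, had 8.23 against 7.07 in the HUTU-80 control, 7.16 against 6.36 in the NCI-H716 control, and 10.25 against 10.28 in the MDST8 control. TMC4 and ARL14 reached at most 5.61 with the construct, just over background. SCNN1A, a subunit of the epithelial sodium channel, was 9.05 against 5.92 in NCI-H716 and below background in the other lines, and did not pass.

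Among the factors that set the epithelial programme, OVOL2 passed in the 2 lines, so that 1 of 13 measured members rose, against 0.334% of all genes. OVOL2, a repressor that in other epithelia holds down ZEB1, had 5.21 against 3.84 in the HUTU-80 control, 3.46 against 3.43 in the MDST8 control, and 5.47 against 4.10 in the NCI-H716 control, so that a single array was above background. It rose by 1.37 ± 0.30 (adjusted p = 0.049). ESRP1, the splicing factor of epithelial isoforms, had 5.64 against 3.13 in the NCI-H716 control and was at background elsewhere, from 3.03 to 3.50 (adjusted p = 0.177 over HUTU-80 and NCI-H716). ESRP2 was below background on all 6 arrays. KLF4 was 6.79 against 5.30 in HUTU-80 and 10.39 against 10.08 in NCI-H716, and did not pass (adjusted p = 0.072). Of 9 measured keratins, KRT8 and KRT18, the partners of simple epithelia, rose, against 0.334% of all genes. KRT8 had 9.498 against 6.98 in the HUTU-80 control and 9.91 against 9.59 in the NCI-H716 control, and stayed below background in MDST8. KRT18 had 5.47 against 4.38 in the HUTU-80 control, 10.55 against 9.89 in the MDST8 control, and 11.89 against 11.42 in the NCI-H716 control.

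ZEB1, the main miR-200 target, fell in HUTU-80 and NCI-H716. It had 8.75 with miR200ba429 and 9.87 in the control of HUTU-80, 9.26 and 9.39 in MDST8, and 8.85 and 10.14 in NCI-H716. All 6 values were well above background, so these are measured changes of −1.13, −0.13 and −1.29. ZEB1 fell by 1.21 ± 0.12 over the 2 lines (SE, adjusted p = 4.5e-05, and 0.011 with all 4 groups in the model). The MDST8 change minus the mean of the others was 1.08, which was not called. Of the other EMT transcription factors none passed. ZEB2, measured in MDST8, had 7.59 there against 7.97 in the control. SNAI2 had 10.72 against 10.74 and TWIST1 9.77 against 9.84 in MDST8, and both were below background in the other lines. PRRX1, a mesenchymal homeobox factor, had 8.29 against 9.94 in MDST8 and 8.54 against 8.55 in NCI-H716.

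Of 42 measured miR-200 targets from the literature, 4 fell in HUTU-80 and NCI-H716, against 0.187% of all genes: ZEB1, RECK, CRTAP and CFL2. None rose. This list too was chosen with earlier results of these data known. The fitted change over 3 lines was negative in 29, against 51.2% of all genes, and the median was −0.10. Medians by line were −0.19 for HUTU-80, −0.05 for MDST8 and −0.17 for NCI-H716. RECK, a membrane inhibitor of matrix metalloproteinases, had 4.44 against 5.88 in the HUTU-80 control, 4.92 against 5.59 in the MDST8 control, and 6.89 against 8.13 in the NCI-H716 control. It fell by 1.34 ± 0.26 (adjusted p = 0.0265), and the HUTU-80 and MDST8 arrays with the construct were below background. CRTAP, part of the collagen prolyl hydroxylase complex, had 10.49 against 11.01, 11.72 against 11.86, and 9.93 against 10.68 in the controls of HUTU-80, MDST8 and NCI-H716. CFL2, a muscle type cofilin that severs actin, had 9.58 against 9.98, 10.67 against 10.65, and 10.36 against 10.98 in the same order of lines. Both thus had their smallest difference in MDST8. Other targets did not pass: PPM1F was 6.11 against 6.90 in NCI-H716, QKI 10.62 against 10.998 in HUTU-80, JAG1 9.37 against 8.29 in HUTU-80 and FN1 12.39 against 12.67 in HUTU-80. The other FN1 probe sets went both ways in HUTU-80, from −0.22 to 1.15.

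Since ZEB1 binds E-boxes, the RefSeq promoters (GRCh38.p14, 250 bases before to 50 after the start) were searched for CAGGTG or CACCTG, the same motif on either strand. Of 15399 promoters of genes on the array, 3019 (19.6%) held it. It was present in 16 of the 47 promoters found for genes that rose in HUTU-80 and NCI-H716 (34.0%) and in 7 of 32 for those that fell (21.9%). It was present in 11 of 24 promoters of the junction list (45.8%) and 8 of 18 of the traffic list (44.4%). These shares are descriptions, and both lists were chosen with earlier results of these data known. A match does not show binding. VAMP8 had no match in this window, and the promoters of EPCAM, CDH1 and MARVELD3 were not analysed here. The 120 bases before the start are shown for 5 genes that rose and for ZEB1, which fell, with the motif in capitals. These genes were picked because they hold a match there, so they show only where it lies.
CDS1, chr4:84583007-84583126, plus strand: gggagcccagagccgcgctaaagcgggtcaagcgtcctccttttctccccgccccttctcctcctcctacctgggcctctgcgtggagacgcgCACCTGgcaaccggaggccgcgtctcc
SEL1L3, chr4:25863567-25863686, minus strand: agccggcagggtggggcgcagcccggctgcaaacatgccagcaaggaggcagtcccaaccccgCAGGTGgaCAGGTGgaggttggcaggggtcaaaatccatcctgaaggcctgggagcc
TMC4, chr19:54173161-54173280, minus strand: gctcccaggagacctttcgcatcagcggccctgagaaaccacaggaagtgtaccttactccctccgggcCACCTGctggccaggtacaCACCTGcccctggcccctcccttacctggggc
ELOVL7, chr5:60844270-60844389, minus strand: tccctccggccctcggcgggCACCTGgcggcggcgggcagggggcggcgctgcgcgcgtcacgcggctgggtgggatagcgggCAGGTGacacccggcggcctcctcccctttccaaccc
PATJ, chr1:61742360-61742479, plus strand: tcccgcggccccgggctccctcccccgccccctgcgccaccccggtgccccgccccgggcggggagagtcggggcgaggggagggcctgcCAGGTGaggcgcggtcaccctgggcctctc
ZEB1, chr10:31318297-31318416, plus strand: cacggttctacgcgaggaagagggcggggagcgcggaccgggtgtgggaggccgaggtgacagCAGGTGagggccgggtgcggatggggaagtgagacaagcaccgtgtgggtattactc
Relative to the start, the first base of the motif lies at −27 in CDS1, at −57 in ZEB1, and at −57 and −49 in SEL1L3.

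No mesenchymal gene passed with miR200ba429 against control, and LUM alone was called in the test of MDST8 against the other lines. Of 48 measured, the fitted change over 3 lines was negative in 29, against 51.2% of all genes, and the median was −0.10. Medians by line were −0.01 for HUTU-80, 0.07 for MDST8 and −0.19 for NCI-H716. VIM, the mesenchymal intermediate filament, had 12.07 against 12.21 in the HUTU-80 control, 13.21 against 13.19 in the MDST8 control, and 11.78 against 11.95 in the NCI-H716 control. CDH2, N-cadherin, had 9.54 against 9.88 in HUTU-80 and 9.68 against 9.62 in MDST8. In MDST8, DCN, a matrix proteoglycan, had 3.02 against 5.48, and COL6A2, a chain of collagen VI, had 7.32 against 8.70, without a replicate. The DCN control lay just over background and the construct array below it, so the fall is at least 1.03-fold. The other DCN probe sets were below background in MDST8 and differed by 0.05, −1.04, −0.38 and −0.03.

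Among all other genes that rose in HUTU-80 and NCI-H716, ZNF165, SEL1L3, HINT3 and SLC27A2 had small adjusted p. ZNF165, a zinc finger gene known from testis and tumours, had 5.51 against 3.29 in the HUTU-80 control, 3.66 against 3.79 in the MDST8 control, and 6.88 against 3.82 in the NCI-H716 control. SLC27A2, an acyl-CoA synthetase of very long fatty acids, had 6.11 against 4.30 in the HUTU-80 control, 3.40 against 3.16 in the MDST8 control, and 9.54 against 8.01 in the NCI-H716 control. JUN, a subunit of AP-1, had 9.68 against 8.60 in the HUTU-80 control, 11.25 against 11.34 in the MDST8 control, and 11.42 against 10.47 in the NCI-H716 control. JUN rose by 1.01 ± 0.10 (adjusted p = 4.7e-05). BIK, a pro-apoptotic BCL2 family member, rose by 1.41 in these lines (adjusted p = 0.030), with 6.82 against 5.48 and 6.43 against 4.95, and was 6.001 against 7.12 in MDST8.

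Besides ZEB1, the falls of small adjusted p in the 2 lines included a homeobox factor and amino acid transporters. SIX3, a homeobox factor of forebrain and eye, had 8.50 against 9.41 in the HUTU-80 control and 4.13 against 6.14 in the NCI-H716 control, and was below background in MDST8. SLC7A2, a cationic amino acid transporter, had 9.11 against 9.81 and 6.83 against 8.04 in these lines, and 5.95 against 5.88 in MDST8. Its relative SLC7A1 fell by 0.46 ± 0.09 (adjusted p = 0.0265). Further genes with large falls in both lines did not pass, among them LRRC20 (−1.30 and −0.94), ZCCHC24 (−1.22 and −0.93) and the microtubule protein gene MAPT (−0.78 and −0.92).

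MDST8 differed from the mean change of HUTU-80 and NCI-H716 in 6 of 19774 genes (0.0303%), all of them lower in MDST8. SEL1L3 had 7.68 against 8.57 in the MDST8 control, where it had 7.91 against 5.70 in HUTU-80 and 8.34 against 6.82 in NCI-H716, which gave a difference of −2.76 (limma interaction, adjusted p = 0.015). H2BC21, a histone H2B gene, had 3.97 against 5.76 in MDST8, 8.62 against 7.12 in HUTU-80 and 8.34 against 7.57 in NCI-H716, a difference of −2.92 (adjusted p = 0.019). The JUN difference was −1.11 (adjusted p = 0.022). LAIR2, a soluble collagen receptor, had 3.08 against 6.38 in MDST8 and was below background in the other lines, and its difference was −3.57 (adjusted p = 0.015). Only the MDST8 control was above background for LAIR2, so its fall there is at least 1.93-fold. LUM, the matrix proteoglycan lumican, had 8.04 against 9.30 in MDST8 with a difference of −1.36, and SERPINI1, neuroserpin, had 5.43 against 7.36 with a difference of −2.14. No gene was called higher in MDST8, and EPCAM, VAMP8 and ZEB1 were not among the 6. No gene was called with gene averages over probe sets, without dim genes, without the trend, after a further quantile normalization or with all 4 groups.

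The largest differences within MDST8 lay in other genes than those of the other lines and have no replicate. With miR200ba429, NEDD9, a scaffold of focal adhesions, had 6.41 against 4.26 in the control. NOG, the BMP antagonist noggin, had 6.57 against 4.44, and EDN1, the peptide endothelin 1, had 7.00 against 5.17. SERPINB7 had 8.81 against 6.87, and PDE1C, a calcium dependent phosphodiesterase, 8.19 against 6.15. The construct array was the higher in all of these. Lower with the construct were C3, complement component 3, with 3.43 against 6.40, CH25H, cholesterol 25-hydroxylase, with 3.37 against 5.88, and SLC14A1, a urea transporter, with 5.69 against 8.13. Averaging the probe sets of a gene made the NEDD9 difference 1.16 in place of 2.15 and the DCN difference −0.77 in place of −2.46.

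Few genes moved alike in all 3 lines. Of 8072 genes above background in every line, 2664 had the same direction, 9 were higher by more than 0.5 in each line and 9 lower. DDIT4, an inhibitor of mTORC1 that is induced by stress and low oxygen, had 8.31 with miR200ba429 and 9.46 in the control of HUTU-80, 8.01 and 9.35 in MDST8, and 9.49 and 10.24 in NCI-H716. Every construct array was below the control of its line, and the fitted change was −1.08 ± 0.13 (SE, n = 3 against 3, adjusted p = 0.222). In the fit without NCI-H716, DDIT4 (adjusted p = 0.037), ASNS and MMP1 fell. MIR22HG, the host transcript of miR-22, had 9.15 against 7.95, 8.75 against 7.96, and 9.24 against 8.46 in the controls of HUTU-80, MDST8 and NCI-H716, a fitted change of 0.92 ± 0.13 (adjusted p = 0.421).

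The other genes of this kind belonged to several processes. AP1S3, a subunit of the adaptor AP-1 that sorts vesicle cargo, was higher by 0.83, 0.90 and 0.75 in HUTU-80, MDST8 and NCI-H716. GCLM, the modifier subunit of the glutathione-making ligase, was higher by 0.48, 0.80 and 0.87. MXI1, an antagonist of MYC, was lower by 0.57, 0.56 and 0.67, and HLA-G, a nonclassical class I gene whose probe sets may also read its relatives, by 0.77, 0.90 and 0.62. The other HLA-G probe sets were lower in MDST8 and NCI-H716 but differed by −0.03, 0.37 and −0.11 in HUTU-80. The HLA-G fall in HUTU-80 thus rests on the probe set used. PRSS23, HINT3 and KLF6 were higher in all lines by 0.50 or more, and RFX3, TTLL1 and RILPL1 lower. GCLM, MXI1, PRSS23, HINT3 and KLF6 passed in the fit of HUTU-80 and NCI-H716, but none passed over 3 lines.

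**Figure D3:**
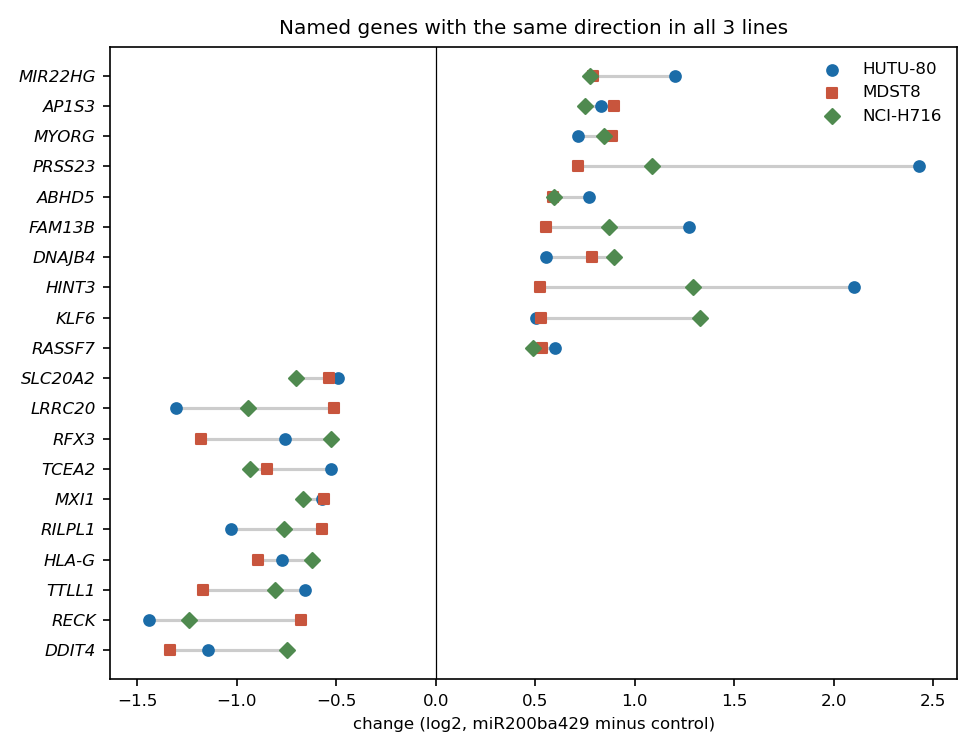
Change (log2, miR200ba429 minus control) in HUTU-80, MDST8 and NCI-H716 of the 10 genes higher and 10 genes lower in all 3 lines whose smallest change was largest. The 3 points of AP1S3, MXI1 and RASSF7 lie close together, while HINT3 and PRSS23 reach over 2 in HUTU-80.

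DDIT4 belongs to a list of stress response genes and mTOR brakes in which 19 of 21 had a negative fitted change, against 51.2% of all genes, with a median of −0.28. Medians by line were −0.47 for HUTU-80, −0.30 for MDST8 and −0.10 for NCI-H716. DDIT4 and PHGDH, the first enzyme of serine synthesis, fell in the fit of HUTU-80 and NCI-H716, against 0.187% of all genes. PHGDH had 6.74 against 8.06, 7.29 against 7.76 and 7.77 against 8.43 in the controls of HUTU-80, MDST8 and NCI-H716. ASNS, which makes asparagine, had 10.57 against 11.47 in HUTU-80 and 9.502 against 10.40 in MDST8, and 10.77 against 10.66 in NCI-H716. CHAC1, which degrades glutathione, had 5.53 against 8.17 in HUTU-80 and was below background in the other lines. ATF4, the factor that drives many of these genes, had 10.90 against 11.64 in HUTU-80 and differed by less than 0.1 in MDST8 and NCI-H716.

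Genes of cholesterol and fatty acid synthesis went apart by line. Of 20 measured, 19 were lower in HUTU-80 with a median of −0.62, 10 were lower in MDST8 with a median of 0.01, and 4 were lower in NCI-H716 with a median of 0.21. Of all genes, 48.9%, 50.9% and 52.6% were lower in these lines. SREBF1, the factor that drives lipid synthesis, fell, with 7.20 against 8.18 in HUTU-80, 6.98 against 7.17 in MDST8 and 8.09 against 8.93 in NCI-H716 (−0.91 ± 0.17 over the 2 lines, adjusted p = 0.021). INSIG1, a sterol sensor, had 8.25 against 9.66 in HUTU-80 and 10.54 against 10.10 in NCI-H716, and MSMO1, a demethylating oxidase of the pathway, 9.95 against 10.68 and 10.90 against 10.10. The difference between HUTU-80 and NCI-H716 was not tested.

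Genes of DNA replication and mitosis were divided between the lines as well. All 50 were higher with the construct in MDST8, by 0.01 to 0.75 with a median of 0.36, while 44 were lower in HUTU-80 with a median of −0.32 and 36 in NCI-H716 with a median of −0.13. Of all genes, 49.1% were higher in MDST8, 48.9% lower in HUTU-80 and 52.6% lower in NCI-H716. MKI67, the proliferation antigen, had 8.91 against 9.63 in HUTU-80, 9.502 against 8.75 in MDST8 and 8.43 against 8.15 in NCI-H716. MCM2, of the replicative helicase, had 10.08 against 10.65, 8.21 against 8.20 and 9.07 against 9.65 in the same lines. RFC3, of the clamp loader, had 9.64 against 10.14, 9.70 against 9.23 and 10.38 against 10.78. MCM2 and RFC3 fell in the fit of HUTU-80 and NCI-H716 (adjusted p = 0.0235 and 0.0495), against 0.187% of all genes, and none of the 50 was called in the test of MDST8 against the others. Genes of this list are known to move together with growth, so the 50 values are not independent.

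**Figure D4:**
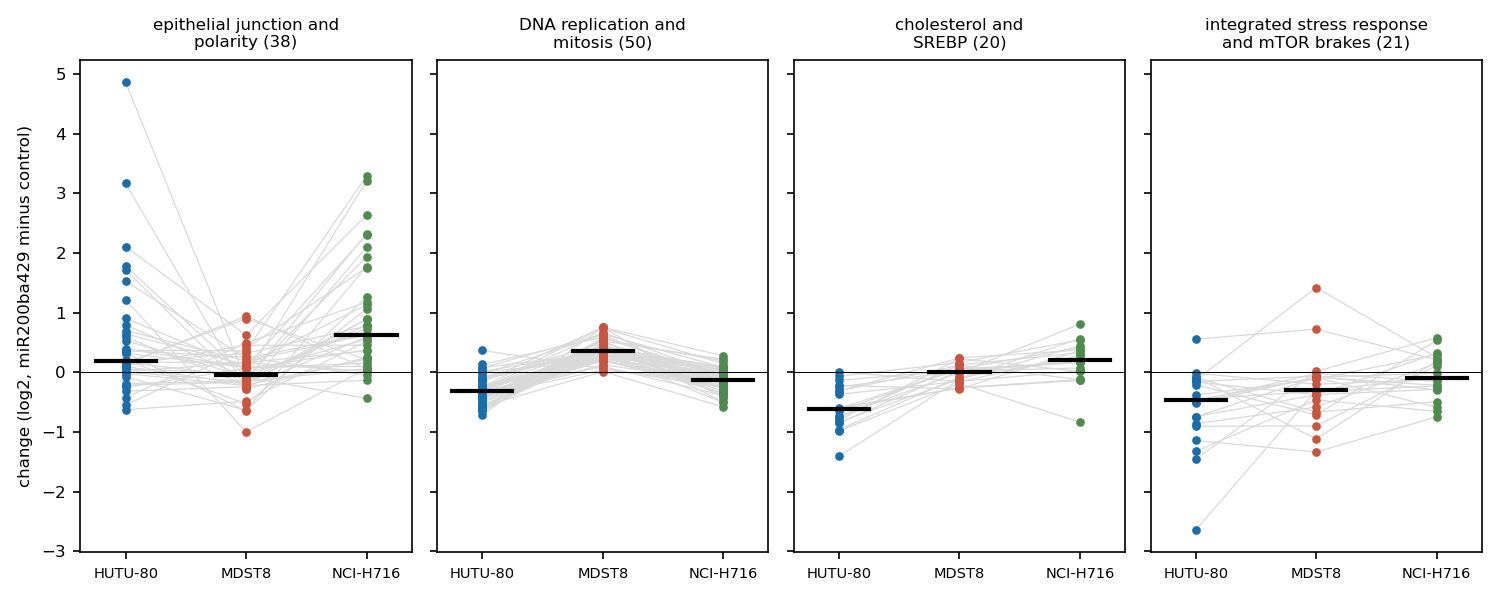
Change (log2, miR200ba429 minus control) of each measured member of 4 gene lists in HUTU-80, MDST8 and NCI-H716, with grey lines joining a gene across lines and black bars at the medians. The junction genes spread upward in HUTU-80 and NCI-H716, and all 50 replication genes lie above 0 in MDST8.

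No interferon-stimulated gene passed. Of 42 measured, 31 had a negative fitted change, against 51.2% of all genes, with medians of −0.31 for HUTU-80, −0.18 for MDST8 and −0.06 for NCI-H716, and 12 were above background in every line. IFITM3, an antiviral membrane protein, had 9.63 against 10.43 in HUTU-80, 9.83 against 10.05 in MDST8 and 5.60 against 5.95 in NCI-H716. IFIH1, a sensor of viral RNA, had 11.82 against 12.03, 5.49 against 5.91 and 10.25 against 10.72.

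Genes of the antioxidant factor NRF2 had a positive fitted change in 19 of 24, against 48.8% of all genes, with a median of 0.20. GCLM and TXNRD1, thioredoxin reductase, rose in HUTU-80 and NCI-H716, against 0.334% of all genes. TXNRD1 had 11.59 against 10.91 in HUTU-80, 12.04 against 11.71 in MDST8 and 11.35 against 11.15 in NCI-H716. AKR1B10, an aldo-keto reductase, had 8.52 against 3.81 in NCI-H716 and was below background elsewhere (adjusted p = 0.069). The cystine transporter SLC7A11 had 8.81 against 7.69 in MDST8, 9.41 against 8.89 in NCI-H716 and 10.26 against 10.25 in HUTU-80. In NCI-H716, 23 of the 24 were higher, against 47.4% of all genes.

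Intestinal genes were measured mainly in NCI-H716. Of 34, 21 were above background there, against 3 in HUTU-80 and 0 in MDST8, and 23 of the 34 were higher in NCI-H716, against 47.4% of all genes. GPX2, an intestinal glutathione peroxidase, had 11.07 against 7.13 in NCI-H716, was below background in the other lines, and rose in the fit of HUTU-80 and NCI-H716 (2.28 ± 0.46, adjusted p = 0.033). It was the only 1 of the 34 that passed, against 0.334% of all genes that rose. CEACAM5, the carcinoembryonic antigen, had 10.25 against 5.68, CEACAM6 11.52 against 9.13, and VIL1, the microvillus protein villin, 9.58 against 6.95 in NCI-H716. LYZ, lysozyme of Paneth cells and macrophages, had 9.45 against 7.97 there, while PTPRC, the leukocyte common antigen, was below background. These NCI-H716 values have no replicate. Of the neuroendocrine list, NTS, neurotensin, rose, with 9.98 against 9.45 in HUTU-80 and 6.83 against 5.41 in NCI-H716. Of 25 measured p53 targets 1 rose, against 0.334% of all genes: TP53I3, with 10.87 against 9.73 in HUTU-80 and 8.82 against 8.45 in NCI-H716. Ribosomal protein genes, a set of very high level, had medians between −0.04 and −0.02 in the 3 lines.

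**Figure D5:**
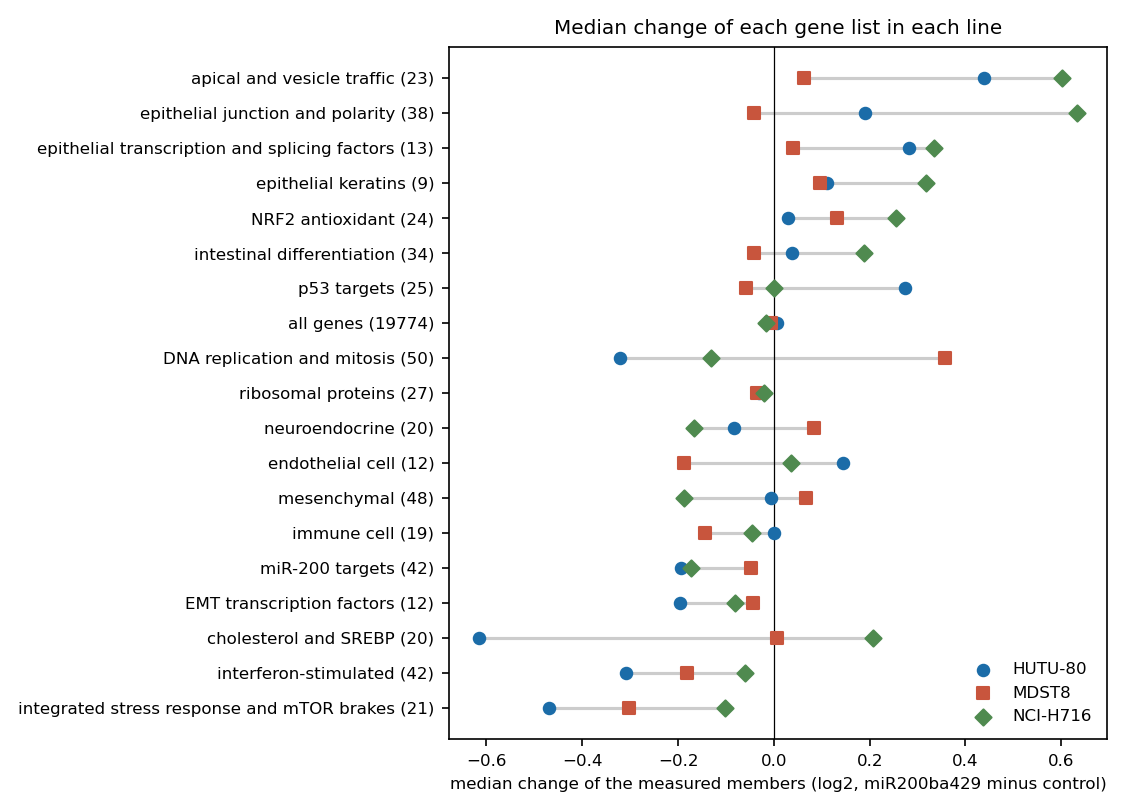
Median change (log2, miR200ba429 minus control) of the measured members of 18 gene lists and of all genes in HUTU-80, MDST8 and NCI-H716, with the number of genes in brackets. The lists of apical traffic and of junctions lie right of 0 in HUTU-80 and NCI-H716 and near 0 in MDST8, and the replication list lies right of 0 only in MDST8.

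The most similar construct is miR200c141, which carries the other cluster with the same pair of seeds. No gene differed between miR200ba429 and miR200c141 over 3 lines (0%), the smallest adjusted p being 0.254, with 997 genes at an unadjusted p under 0.05 where 989 would be expected. This does not show that the constructs act alike. In MDST8 the levels stood apart: VAMP8 had 3.14 with miR200ba429, 8.29 with miR200c141 and 2.95 in the control, and ZEB1 had 9.26, 7.94 and 9.39. CDS1 had 6.87, 8.51 and 6.94 in the same order, while EPCAM was below background on all 3 of these arrays. In NCI-H716, VAMP8 had 8.76, 9.70 and 5.01, and ZEB1 8.85, 8.43 and 10.14. Over 3 lines miR200ba429 minus miR200c141 was −2.35 ± 0.65 for VAMP8 (adjusted p = 0.925), −1.27 ± 0.20 for CDS1 (adjusted p = 0.631) and 0.84 ± 0.16 for ZEB1 (adjusted p = 0.925). The fit without MDST8 called 7 genes, EPCAM and VAMP8 lower with miR200ba429, and H2BC5, H2BC8, HIPK3, JUN and OSTM1 higher, and the fit without HUTU-80 called CDS1 alone, lower with miR200ba429. The comparisons of both constructs with the control share the control arrays, so their changes are given side by side only.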

How the data were processed

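RNA was labelled and hybridised to Affymetrix U133 Plus arrays (GeneTitan), per the labels' protocols, and the probe set names are those of the PM version. The authors deposited 1 log2 value of intensity for each probe set, which is RMA output per the submitters' processing notes. The sources used here give no software, version or build. Values were used as deposited, and the number of arrays limits the precision. Of 54715 probe sets, 40914 naming 1 gene were kept and 864 naming several left out. Each of 19774 genes was taken from its brightest probe set, by the mean over 12 arrays. Samples were grouped by title.

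Comparisons used limma 3.58.1 in R 4.3.3, with tables read by the data.table package (1.17.8). The model held the cell line as a block, variances were moderated with a trend on level, and tests used two-sided p-values and Benjamini-Hochberg adjustment at 0.05 across the whole set of genes. The pairing comes from the shared line, with correlations of at least 0.991 within and at most 0.885 between lines. For the contrast with miR200c141, the HUTU-80 arrays titled 1:3 and 1:5 were averaged, and with either of them alone 0 genes were called as well. Where the dimmer array of a pair lay below background, it was set to 5.43 and the fold given as a lower bound. Fits were tested on simulated data. Alternatives were other probe set rules, a filter on dim genes, no trend, further normalization, all groups in the model, no block, each line left out and, chosen after seeing the data, robust moderation.

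Members, gene lists and the split of MDST8 from the other lines were chosen with earlier results of these data known. Named genes are the 10 rises and 10 falls whose smallest change over 3 lines is largest, 12 and 12 likewise over HUTU-80 and NCI-H716, 8 and 8 in MDST8, 5 and 5 of smallest p, all EMT factors, 4 per list, 7 genes such as CDH1 and VIM, and up to 10 called genes for each fit and direction. Other genes were named after their values were seen. Of 519 listed genes 40 were not analysed here.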

Additional observations from a re-analysis of the deposited data

Results flagged for a closer look

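In 6 genes the change with miR200ba429 in MDST8 differed from the mean change of HUTU-80 and NCI-H716 in the test of that difference (limma). The differences were −3.57 for LAIR2 (adjusted p = 0.015), −2.76 for SEL1L3 (adjusted p = 0.015), −2.92 for H2BC21 (adjusted p = 0.019), −1.36 for LUM (adjusted p = 0.019), −1.11 for JUN (adjusted p = 0.022) and −2.14 for SERPINI1 (adjusted p = 0.038). MDST8 was the lower in each. With miR200ba429 in MDST8 itself, the changes were −3.30 for LAIR2, −0.90 for SEL1L3, −1.79 for H2BC21, −1.26 for LUM, −0.09 for JUN and −1.93 for SERPINI1. SEL1L3, H2BC21 and JUN were also higher with it in both other lines. For H2BC21 and LAIR2 the MDST8 array with the construct lay below background. LAIR2 was below background on all arrays of the other lines too. Its fall in MDST8 is thus at least 1.93-fold, and its −3.57 is not a measured difference. Each rests on 1 pair of arrays from MDST8.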

How the results depend on the processing

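Without the replicate block, which pairs the arrays of a line, 0 genes passed in HUTU-80 and NCI-H716, against 103 with it. That count was also 0 with the mean of a gene's probe sets and 0 without the variance trend. It was 28 with dim genes left out, 19 after a further quantile normalization, 6 with all 4 groups in the model and 41 with robust moderation, which was chosen after seeing the data. All of the 28, 19, 6 and 41 were among the 103. With the brightest probe set over these 6 arrays 117 passed, and after centring on array medians 97. Genes that differed in MDST8 numbered 0 instead of 6 with averaged probe sets, without dim genes, without the trend, after quantile normalization and with all 4 groups, and 14 with the brightest probe set over 6 arrays. Leaving out each line in turn gave 0 to 103 genes in place of 0 for the 3-line comparison, 103 without MDST8, and 0 to 7 for miR200ba429 minus miR200c141, 7 without MDST8. No fitted change of a gene followed across these settings reversed. Medians of gene lists were compared only as the same or moved, and 8 of these comparisons moved. Whether a list median changed sign was not assessed. The cause of the differences between settings was not tested. The fit of HUTU-80 and NCI-H716 is the 3-line fit without MDST8. Genes below background have no measured level, so their differences are bounds at most.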

Other observations

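The genes given here are in no list and were picked from the called genes after their values were seen, so they stand as single values. Among histone genes H2BC5, H2BC21, H2BC8, H1-2, H3C2 and H2BC12L rose in HUTU-80 and NCI-H716, H1-10 fell, and H2BC4 did not pass (limma adjusted p = 0.0634). H2BC8, below background in MDST8, was higher by 2.13 in HUTU-80 and 0.59 in NCI-H716 and lower by 0.17 in MDST8, and H2BC5 was higher by 1.30 and 0.48 and lower by 0.62 in MDST8. H1-2 was higher by 1.47, 0.31 and 0.35 in HUTU-80, NCI-H716 and MDST8. The H2B genes are close paralogs, and signal shared between their probe sets was not tested, so the individual members are uncertain.

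Other called rises were CHMP4C, of the membrane-cutting ESCRT-III complex, by 2.63 and 0.98 in HUTU-80 and NCI-H716, the collagen receptor subunit ITGA2 by 2.19 and 0.31, the small GTPase RHOB by 0.93 and 2.02, BAIAP2L1 by 0.51 and 2.24, and the lipid hydroxylase FA2H by 0.63 and 2.72. FA2H lay below background on both HUTU-80 arrays. In MDST8 the same genes differed by −0.51, −0.57, 0.30, −0.08 and −0.60.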
